A study of Mus musculus with 11 samples.

Results

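The myeloid transcription factors described here are 7 genes chosen by name: Spi1, Spic, Irf8, Cebpa, Cebpb, Maf and Nr1h3. They are 7 of the 16576 genes listed in at least 1 of the 3 count tables deposited for sorted mouse bone marrow stromal cells, and each of the 7 was listed and tested in all 3 tables. Spi1 encodes PU.1, the ETS-family factor that macrophages, neutrophils and B cells need, and Spic encodes its relative Spi-C, which is known for the iron-recycling macrophages of spleen and marrow. Irf8 encodes an interferon regulatory factor that binds DNA together with PU.1 and directs precursors towards monocytes and dendritic cells. Cebpa and Cebpb encode basic leucine zipper factors of granulocyte and monocyte development, and both also act in fat cell differentiation. Maf encodes c-Maf, a factor of resident macrophages and of some T cells, and Nr1h3 encodes LXRα, an oxysterol receptor that turns on cholesterol export genes in macrophages and in metabolic tissues.

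PolyA RNA of 11 samples from flow-sorted bone marrow stromal cells was sequenced, in 4 groups. The adult group held 3 wild-type samples sorted for PDGFRa and CD51, and the perinatal Sca1+ group held 3 Cre-negative wild-type samples sorted for PDGFRa and Sca1, with cells that the labels call postnatal. The perinatal Sca1- group held 2 wild-type samples (replicates 2 and 3) sorted for PDGFRa without Sca1, and the knockout group held 3 Cre-positive samples with deletion of the growth factor receptor gene Igf1r, sorted like the Sca1+ group. The design asked how these stromal cells differ with age, with the Sca1 gate and without the receptor (the sources used here give neither the Cre line nor the ages in days nor the number of animals behind a sample). Age and gate changed together between adult and perinatal samples, so that their effects cannot be told apart, and the same holds for Cre and the deletion. Nothing in the labels ties samples of a group to separate animals, and the p-values reflect variation among these samples that may be technical.

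Sca1+ libraries 2 and 3 served as controls in all 3 tables, so the comparisons are not independent of each other. Sca1+ replicate 1 differed between tables, where equal counts were found for 1.72% of the genes that its age and knockout versions have in common. Ly6a, which encodes Sca1, went against the gate labels, with 666 and 659 CPM (counts scaled by the library total) in the libraries labelled Sca1- and 13.8 and 10.03 CPM in Sca1+ libraries 2 and 3. In the knockout table Ly6a stood at 425 CPM in Sca1+ replicate 1 and at 682 to 930 CPM in the knockouts, and it is not listed in the age table. Sca1+ libraries 2 and 3 also stood apart from every other perinatal library in cartilage and bone markers, with sums of 6016 to 7234 and 5707 to 6138 CPM against 430.4 to 911 and 83.2 to 329 CPM. Results of the age and knockout comparisons are therefore also given without them, and the Sca1 comparison has no other Sca1+ library. Igf1r had 3.24 to 8.20 CPM in the knockouts and 29.5 to 31.7 CPM in their controls. Library totals ran from 13412316 to 23782217 counts, at which 3 counts correspond to 0.126 to 0.224 CPM, a limit that covers counting error only.

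On the mouse assembly GRCm38 (mm10) Spi1 lies at chr2:91082390-91115756 on the plus strand and Nr1h3 at chr2:91184061-91202834 on the minus strand, 68304 bases apart with 2 protein-coding genes between them. Cebpb lies on the same chromosome at chr2:167688915-167690418, Cebpa at chr7:35119293-35121928, Maf at chr8:115682942-115707794, Irf8 at chr8:120736358-120756694 and Spic at chr10:88674772-88685015, by the GENCODE annotation. Cebpa and Cebpb each have a single exon. The exon of Cebpb shares 312 of its 1504 bases with an exon of Tmem189 on the opposite strand (chr2:167689511-167689822). No source used here gives the strand setting of the counting, so reads from those bases cannot be assigned to either gene.

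The RefSeq promoter table (GRCm38.p6) held entries for 5 of the 7 genes, and not for Spi1 and Maf. The 250 bases before the start of 4 genes are shown, of which Cebpa, Irf8 and Spic were called higher in the adult libraries and Cebpb was not. Nr1h3 was also called higher and has entries, but its sequences are not shown. They read 5′ to 3′ along the gene, with capitals marking TATAAA in Cebpa and Irf8 and TGCTGA, the core of Maf binding sites, in Spic. Their positions are chr7:35119043-35119292 for Cebpa, chr8:120736108-120736357 for Irf8, chr10:88683024-88683273 (minus strand) for Spic and chr2:167688665-167688914 for Cebpb.
Cebpa: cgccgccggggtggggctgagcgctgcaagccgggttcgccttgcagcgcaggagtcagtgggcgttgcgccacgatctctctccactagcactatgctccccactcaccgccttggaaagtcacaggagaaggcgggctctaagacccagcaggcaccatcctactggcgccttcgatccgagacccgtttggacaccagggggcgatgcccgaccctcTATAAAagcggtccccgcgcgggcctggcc
Irf8: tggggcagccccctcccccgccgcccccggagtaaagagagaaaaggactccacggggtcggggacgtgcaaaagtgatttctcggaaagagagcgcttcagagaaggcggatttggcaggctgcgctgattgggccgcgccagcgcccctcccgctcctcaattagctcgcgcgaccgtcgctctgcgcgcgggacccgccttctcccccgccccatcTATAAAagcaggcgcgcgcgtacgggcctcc
Spic: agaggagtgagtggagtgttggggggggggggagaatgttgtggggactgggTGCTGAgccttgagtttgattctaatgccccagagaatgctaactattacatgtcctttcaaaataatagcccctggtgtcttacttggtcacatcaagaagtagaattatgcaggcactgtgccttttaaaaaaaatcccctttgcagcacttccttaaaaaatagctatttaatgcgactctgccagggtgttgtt
Cebpb: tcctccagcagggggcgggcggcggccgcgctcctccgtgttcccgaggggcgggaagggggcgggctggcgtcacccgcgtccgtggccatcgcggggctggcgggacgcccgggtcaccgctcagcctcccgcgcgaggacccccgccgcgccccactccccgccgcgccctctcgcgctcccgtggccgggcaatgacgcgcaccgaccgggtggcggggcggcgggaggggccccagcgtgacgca

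TATAAA begins 30 bases before the start of Cebpa and 31 bases before that of Irf8, and it was found on either strand in 13.6% of all 32851 promoter windows of 300 bases. In Cebpb the same letters lie after the start and outside the bases shown. The promoter bases shown hold 81.6% G and C in Cebpb, 67.2% in Irf8, 66.4% in Cebpa and 44.8% in Spic. Across the 7 windows of the 5 genes, searched on both strands, the PU.1 motif GAGGAA was found in 1 (Nr1h3) against 28.3% of all windows. The Maf core TGCTGA was found in 2 (Spic and a second start of Irf8) against 19.5%. The ETS and IRF composite, GGAA and GAAA with 2 bases between them (2.72% of all windows), the C/EBP motif TTGCNNAA (10.8%), the LXR unit AGGTCA (16.3%) and the full LXR element of AGGTCA repeated after 4 bases (0.0152%) were in 0 of the 7. The full element contains the single unit, and a match or its absence describes these letters in these windows alone.

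In adult against perinatal Sca1+ libraries, 6 of the 7 factors were called higher in the adult and 0 were called lower, at an adjusted p under 0.05 by the edgeR quasi-likelihood test. Of all 13757 genes tested, 37.4% were called higher and 39.7% lower, 77.1% in all, and 78.7% had an unadjusted p under 0.05. Every adult library lay above every perinatal library in 39.7% of genes and below in 41.6%. The median log2 difference was 4.09 over the 7 factors and -0.06 over all genes. In bulk samples fewer cells of a type and less RNA per cell cannot be told apart.

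**Figure D1:**
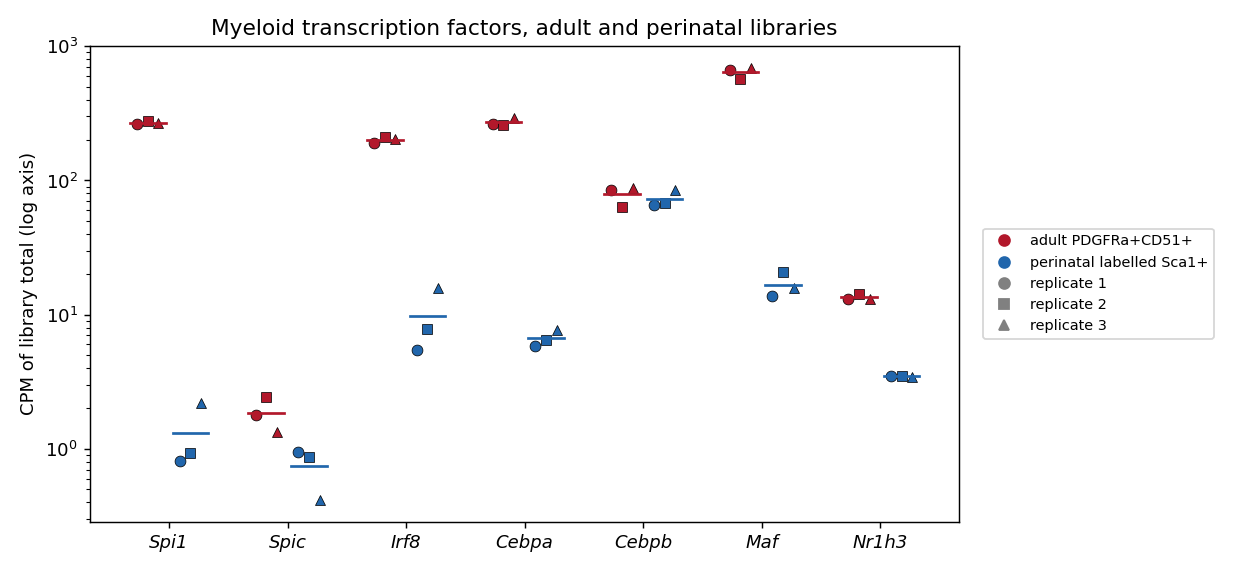
CPM of the library total (log axis) of each factor in the 3 adult (red) and 3 perinatal Sca1+ (blue) libraries, with replicates as marker shapes and group means as bars. Adult points lie above all perinatal points for every factor except Cebpb, whose points overlap (63.4 to 87.2 CPM in the adult and 66.2 to 84.4 CPM in the perinatal libraries).

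Spi1, the gene of PU.1, had 263, 278 and 269.8 CPM in adult libraries 1 to 3 and 0.809, 0.923 and 2.21 CPM in the perinatal libraries. The perinatal values rest on 12, 16 and 32 counts. The groups were thus far apart, at 270.0 ± 7.50 against 1.32 ± 0.780 CPM (SD, n = 3 each), and the spread was proportionally wider in the perinatal libraries. The difference was 7.42 on the log2 scale (SE 0.36, a 171-fold change), with an edgeR adjusted p of 2.26e-06, and it was the highest of the 7.

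Spic, the other ETS factor, was low in both groups, with 1.79, 2.42 and 1.34 CPM in the adult and 0.944, 0.866 and 0.415 CPM in the perinatal libraries. All adult values were above all perinatal values, although the perinatal ones rest on 14, 15 and 6 counts. The log2 difference was 1.04 (SE 0.40) with an edgeR adjusted p of 0.0439. The call was lost with upper quartile scaling (adjusted p = 0.0733), with DESeq2 (0.0617), in the authors' deposited table (0.0771) and on leaving out any single library other than Sca1+ replicate 1 (0.0549 to 0.153). Spic was also not called without Sca1+ libraries 2 and 3, in a fit with Sca1+ replicate 1 alone in its group.

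Irf8, the partner of PU.1, had 191, 209 and 202 CPM in the adult and 5.46, 7.85 and 15.9 CPM in the perinatal libraries. Sca1+ library 3 held the highest perinatal level of both Irf8 and Spi1. Irf8 rose by 4.09 on the log2 scale (SE 0.38, 17.1-fold) with an edgeR adjusted p of 4.47e-05.

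The C/EBP pair parted. Cebpa, the factor that granulocyte and monocyte progenitors require, had 264, 258 and 292 CPM in the adult and 5.80, 6.46 and 7.68 CPM in the perinatal libraries. It rose by 5.08 on the log2 scale (SE 0.17, 33.9-fold), with an edgeR adjusted p of 6.84e-07, the lowest among the 7. Cebpb, an inflammation-responsive relative that stromal and fat cells express as well, had 85.4, 63.4 and 87.2 CPM in the adult and 66.2, 67.5 and 84.4 CPM in the perinatal libraries. Its groups overlapped, and the log2 difference was -0.15 (SE 0.18, edgeR adjusted p = 0.464), with the sign turning to 0.0289 without adult replicate 2.

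In the authors' TPM, which are scaled per length, Cebpb had 82.0, 52.2 and 80.2 in the adult and 135, 124 and 160 in the perinatal libraries, with no overlap. A limma fit on log2(TPM + 1) called it lower in the adult by -0.98 (adjusted p = 0.00286), so counts and TPM disagree on whether Cebpb differs. Its TPM per CPM was 0.824 to 0.961 in the adult and 1.84 to 2.04 in the perinatal libraries. The log2 shift was -1.34 once TPM per CPM was divided by its median over genes in each library. Of 9294 genes with at least 50 counts in every library, 1.496% fell below that shift. Tmem189, which shares the 312 bases named above, had 188 to 200.2 CPM in the adult and 31.8 to 39.5 CPM in the perinatal libraries (log2 difference 2.16, SE 0.14, edgeR adjusted p = 6.22e-06). Its part in the Cebpb values was not tested. Cebpa and Maf also share 51 bases and 2 stretches of 401 and 39 bases with exons of genes on the other strand that are not listed in the tables. Nr1h3 shares 34 bases with an exon of Gm13783 on its own strand, which is not listed either.

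Maf, the c-Maf gene of resident macrophages, had the most counts of the 7 in the adult, with 664, 575 and 695 CPM against 13.8, 20.8 and 15.7 CPM in the perinatal libraries. The groups did not overlap, and Maf rose by 4.995 on the log2 scale (SE 0.21, 31.9-fold, edgeR adjusted p = 1.47e-06). Nr1h3, the LXRα gene, had 13.0, 14.2 and 13.1 CPM in the adult and 3.51, 3.46 and 3.46 CPM in the perinatal libraries. Its groups did not overlap, and its libraries lay close together, with an SD of 0.650 in the adult and 0.0270 CPM in the perinatal group. It rose by 1.68 (SE 0.17, 3.20-fold, edgeR adjusted p = 5.55e-05). The calls of Spi1, Irf8, Cebpa, Maf and Nr1h3 held in all alternatives run with more than 1 library per group. Without Sca1+ libraries 2 and 3 their differences were 8.12, 4.95, 5.30, 5.29 and 1.69. That fit set the adults against Sca1+ replicate 1 alone, with its spread taken from the adults.

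**Figure D2:**
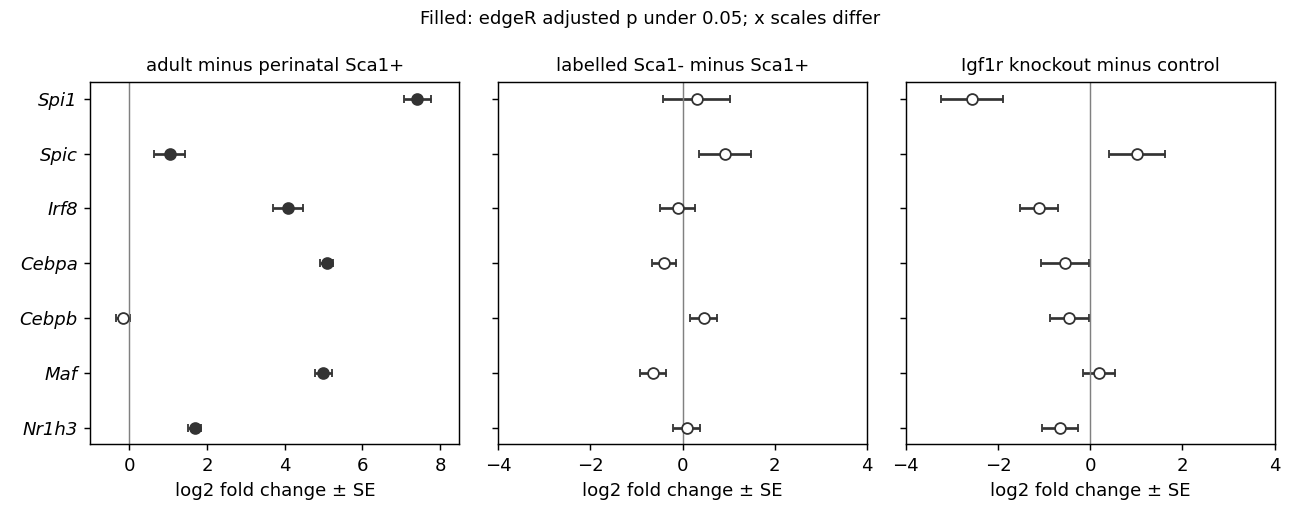
Log2 fold change with its standard error (bars) for each factor in the 3 comparisons (the x axis of the age panel is wider). Filled points were called, 6 in the age comparison and 0 in the others.

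Per length, the order of the factors differed between the groups. In the adult the mean TPM was 242 ± 7.51 for Spi1, 207 ± 29.8 for Maf, 139.5 ± 15.9 for Cebpa and 116 ± 6.70 for Irf8 (SD, n = 3). Cebpb followed at 71.5 ± 16.7, Nr1h3 at 11.97 ± 0.413 and Spic at 2.004 ± 0.492. The highest Maf and Cebpa libraries reached 231 and 155 TPM, below the lowest Spi1 and Maf libraries at 234 and 174. The lowest Cebpa library, at 123, lay just under the highest Irf8 library at 123.5, so that Cebpa and Irf8 overlapped, while Cebpb stayed below both. In the perinatal Sca1+ libraries Cebpb stood first at 139.7 ± 18.2 TPM, more than an order of magnitude above Maf at 6.59 ± 1.69, Irf8 at 5.51 ± 3.30 and Cebpa at 4.35 ± 0.723. Those 3 overlapped with each other, and Nr1h3, at 2.81 ± 0.225, overlapped with Irf8. Spi1 had 1.15 ± 0.837 TPM and Spic was last at 0.530 ± 0.160, with its highest library at 0.639 above the lowest Spi1 library at 0.611.

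Ratios of counts within a library do not depend on its scaling. The Irf8 to Spi1 ratio was 0.727, 0.753 and 0.750 in the adult libraries, with exact 95% intervals that together span 0.695 to 0.789. It was 6.75, 8.5 and 7.19 in the perinatal Sca1+ libraries of the age table, where the intervals span 3.66 to 15.3. Thus each adult library held fewer Irf8 than Spi1 counts and each perinatal library more. The Cebpb to Cebpa ratio was 0.323, 0.246 and 0.298 in the adult and 11.4, 10.4 and 10.99 in the perinatal libraries. These intervals cover counting error only, and a ratio of counts of 2 genes is not a ratio of their levels, since their lengths differ.

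**Figure D3:**
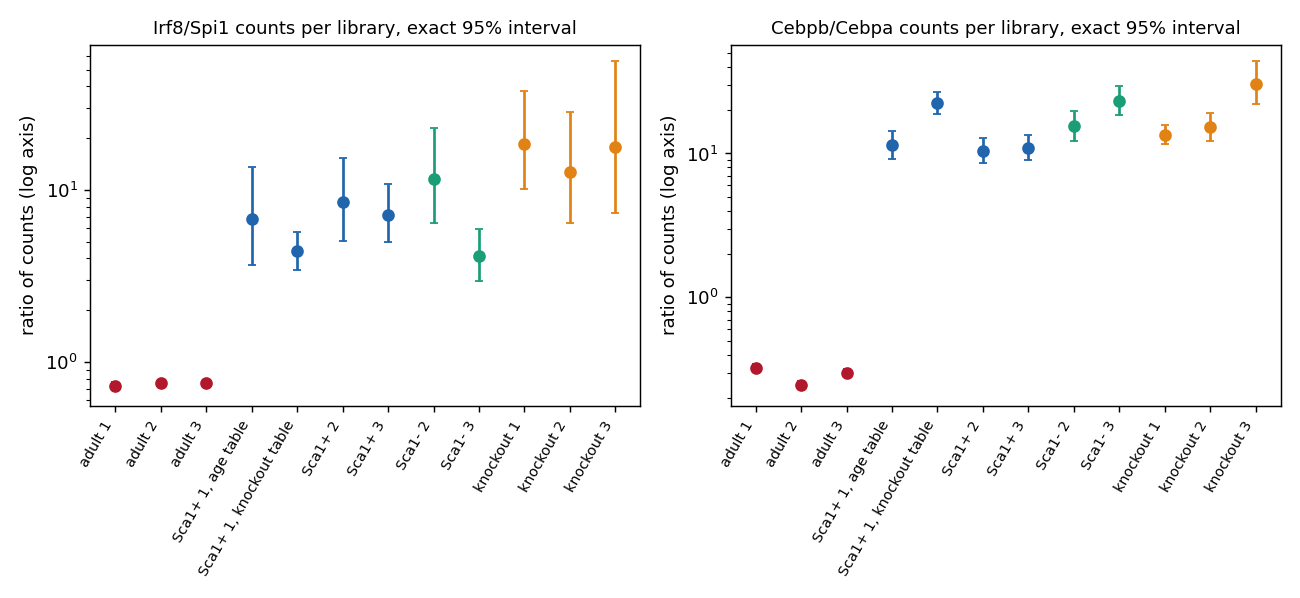
Ratio of counts of Irf8 to Spi1 (left) and of Cebpb to Cebpa (right) in each library on a log axis, with exact 95% intervals. Adult libraries (red) lie below 1 in both panels, and every perinatal Sca1+ (blue), Sca1- (green) and knockout (orange) library lies above 4.

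Markers of macrophages and monocytes moved with the factors. All 15 fixed markers were listed in the age table, and their summed level was 23175 to 25633 CPM in the adult and 31.1 to 38.9 CPM in the perinatal libraries. Of the 14 tested, 14 were called higher in the adult. Adgre1, the gene of the macrophage antigen F4/80, had 881 to 1054 CPM in the adult and 2, 4 and 5 counts in the perinatal libraries, and Itgam had 564 to 629.7 CPM against 2, 6 and 2 counts. The 9 stromal markers summed to 4322 to 6763 CPM in the adult and 54560 to 85436 CPM in the perinatal libraries. Of the 2 genes of the adult gate, Pdgfra was lower in the adult (13.1 ± 1.07 against 290.0 ± 29.7 TMM-scaled CPM, SD, n = 3) and Itgav, which encodes CD51, was higher (263 ± 21.6 against 54.4 ± 2.52). Neutrophil markers summed to 54.8 to 57.6 CPM in the adult, mostly Csf3r, with 5 to 7 of the 11 listed at 0, and to 41.9 to 68.8 CPM in the perinatal libraries. Of the 9 tested, 1 (Csf3r) was called higher in the adult and 6 were called lower. The part of these cell types in the differences of the factors was not tested.

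Relatives of the factors moved in both directions, and values of these and the target genes in the age comparison are TMM-scaled CPM, mean ± SD of 3 libraries. Examples come from the 3 called genes of each list with the lowest adjusted p, and other genes are named after their values were seen. Of 8 ETS relatives tested, 5 were called higher in the adult, among them Elf1 (88.6 ± 3.74 against 32.1 ± 1.18) and Etv6 (55.9 ± 7.33 against 22.1 ± 2.97). The 3 called lower were Ets1 (21.1 ± 0.911 against 97.9 ± 18.6), Ets2 and the endothelial factor Erg. Of 7 IRF relatives, 5 were called higher, led by Irf5 (84.7 ± 9.62 against 4.30 ± 0.790) and Irf2, and the interferon-response factor Irf1 was called lower (51.8 ± 4.39 against 479.5 ± 37.3). Of 4 C/EBP relatives, Cebpg and Cebpz were called higher and Cebpd (67.2 ± 3.48 against 429 ± 53.4) and Ddit3 were called lower.

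Of 6 Maf relatives, 4 were called higher in the adult and 1 (Maff) lower. Bach1, a heme-sensing repressor, rose from 10.7 ± 0.623 to 123 ± 8.34 and Nfe2l2 from 84.2 ± 9.22 to 323 ± 13.2. Mafg, a small Maf protein gene, rose from 30.3 ± 7.56 to 151 ± 31.1. Of 8 LXR partners and cofactors, 5 were called higher, including the partner receptor Rxra (135 ± 27.2 against 35.0 ± 3.53). Rxrg was called lower. Nr1h2, which encodes LXRβ, stood at 111 ± 10.8 against 83.3 ± 18.9 and was not called (edgeR adjusted p = 0.0777). Of 18 other transcription factors of blood cells, 10 were called higher, led by Bhlhe41, Tal1 and Tfec, and 8 were called lower.

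Among target genes of PU.1, c-Maf and LXR none was called lower. Of 13 PU.1 targets, 12 were called higher and 0 lower, with a median log2 difference of 7.74 against -0.06 for all genes. The lists share genes, so their counts are not separate. Csf1r, Itgam and Lyz2 are also among the macrophage markers, and Csf3r also stands in the C/EBP, neutrophil and growth receptor lists. Lyz2, the lysozyme of macrophages and granulocytes, had 10949 ± 629 CPM in the adult and 12.6 ± 0.501 in the perinatal libraries and the integrin gene Itgam 540.1 ± 35.5 against 0.226 ± 0.130. Il1b was not called (1.74 ± 0.122 against 0.915 ± 0.414). All 4 Maf targets tested were called higher (median 10.59), with the complement genes C1qb at 2011 ± 77.0, C1qc at 1588 ± 10.5 and C1qa at 1449 ± 17.1 against 0.888 to 1.30 CPM in the perinatal libraries. Of 14 LXR targets, 13 were called higher and 0 lower (median 2.40), including the cholesterol exporter Abca1 (515 ± 69.6 against 7.44 ± 1.17), Apoc2 and the efferocytosis receptor Mertk. Cd5l, a macrophage secreted protein, had 331 ± 84.7 CPM in the adult and 0 counts in all 3 perinatal libraries, and Mylip was not called.

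Targets of the other factors were divided. Of 9 myeloid targets of C/EBP factors, 2 were called higher (Cd14, 299 ± 11.9 against 6.53 ± 1.15, and Csf3r, 49.8 ± 2.15 against 0.568 ± 0.289) and 7 lower, while Cebpa itself was higher. The 7 were the granule genes Mpo and Ltf, the secreted proteins Lcn2, S100a8 and S100a9, and Il6 and Ptgs2, which stromal cells express as well. Il6 had 0.141 ± 0.134 in the adult and 90.4 ± 26.8 in the perinatal libraries. The median of the 9 was -7.43, or -5.55 with Mpo and S100a9, at 0 counts in every adult library, set to 3 counts per library. Of 5 IRF8 targets, Ctsc, Cybb and Gbp2 were called higher and Klf4 and Cst3 lower. Cybb also stands in the PU.1 list.

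Of 5 tested genes of macrophages that depend on Spi-C, the heme oxygenase gene Hmox1 and Cd163 were called higher in the adult and the adhesion gene Vcam1 lower (19.7 ± 1.59 against 140.5 ± 44.9). The iron exporter gene Slc40a1 was not called (59.7 ± 7.41 against 50.9 ± 29.5), nor was Blvrb. Of 6 adipocyte genes downstream of C/EBP factors, Pparg, Fabp4, Lpl and Lipe were called higher and Adipoq and Slc2a4 lower. Of 11 receptors and ligands of myeloid growth, 6 were called higher, among them Il6ra, Csf3r and Csf2rb, and Flt3 and Csf3 were called lower. Csf1r, the receptor of macrophage colony-stimulating factor, had 1460 ± 180.0 CPM in the adult and 2.93 ± 1.67 in the perinatal libraries, and its ligand gene Csf1 also rose, from 90.6 ± 12.2 to 404 ± 93.6.

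**Figure D4:**
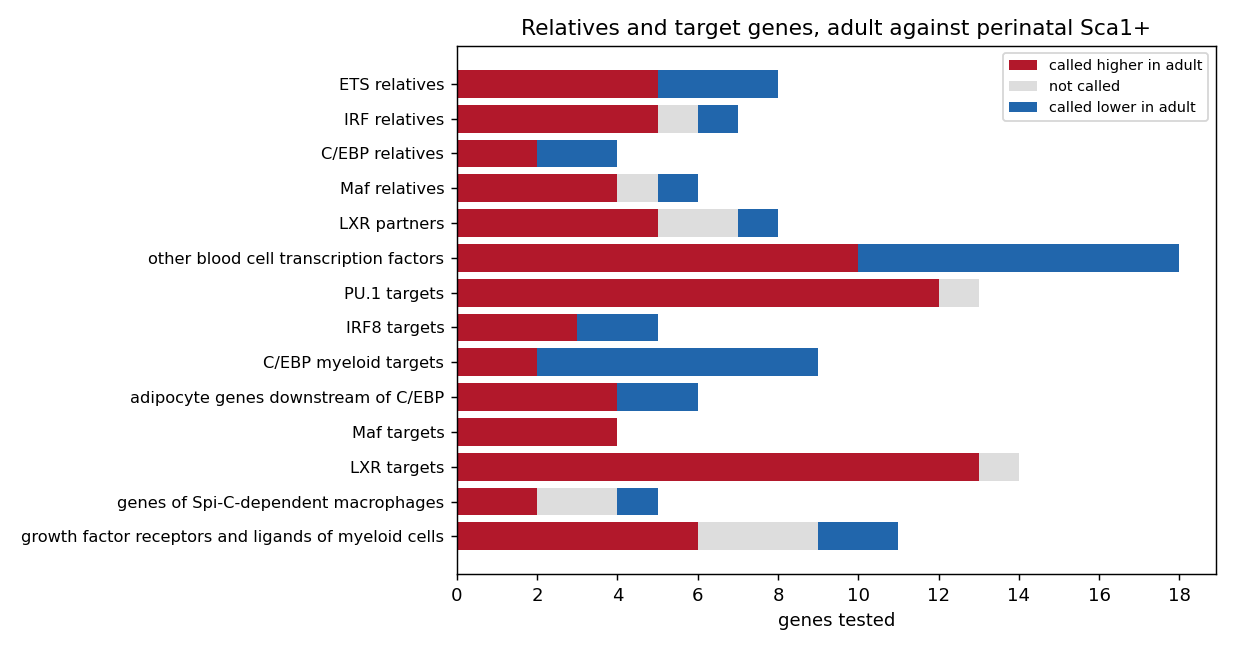
Number of genes tested in each list of relatives and targets, divided into those called higher in the adult (red), not called (grey) and called lower (blue). PU.1, Maf and LXR target lists hold 12, 4 and 13 genes called higher and 0 called lower, and the C/EBP myeloid targets hold 2 and 7.

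Between the libraries labelled Sca1- and Sca1+ (2 against 2), 0 of the 7 factors were called in either direction by edgeR, and 0 reached an unadjusted p under 0.05. Of all 13529 genes tested, 4.41% were called (1.63% of the genes tested stood higher and 2.79% lower under the Sca1- label), and 18.9% had an unadjusted p under 0.05. DESeq2 called 0 of the 7 as well. The median log2 difference was 0.08 over the 7 factors and 0.01 over all genes. Libraries labelled Sca1- held the higher Ly6a level, so a direction here follows the labels and not the Ly6a level.

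Cebpb was the most abundant of the 7 per length in both groups. It had 72.9 and 131.6 CPM in the libraries labelled Sca1- (replicates 2 and 3) and 67.5 and 84.4 CPM in those labelled Sca1+. The groups overlapped, with a log2 difference of 0.45 (SE 0.30, edgeR adjusted p = 0.480). Maf had 13.6 and 9.25 CPM in the libraries labelled Sca1- and 20.8 and 15.7 CPM in those labelled Sca1+. Both lower values carried the Sca1- label, with a log2 difference of -0.64 (SE 0.28, edgeR adjusted p = 0.289). Without Sca1- replicate 2 both were called, Cebpb at 0.80 (adjusted p = 0.00166) and Maf at -0.97 (adjusted p = 0.00578). In that fit the lone Sca1- library was assumed to vary like the Sca1+ group, and the calls over all genes rose to 1111 higher and 1146 lower.

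Cebpa had 4.72 and 5.71 CPM in the libraries labelled Sca1- and 6.47 and 7.68 CPM in those labelled Sca1+, a log2 difference of -0.41 (SE 0.26, edgeR adjusted p = 0.469) without overlap. Spic was higher in both libraries labelled Sca1-, at 1.11 and 1.30 against 0.866 and 0.415 CPM (log2 difference 0.92, SE 0.55, edgeR adjusted p = 0.442), and rests on 6 to 18 counts. Non-overlap of this kind was found in 24.4% of all genes in the higher and 25.8% in the lower direction. Irf8 had 9.12 and 12.6 against 7.85 and 15.9 CPM, Nr1h3 3.15 and 4.05 against 3.46 and 3.46 CPM, and Spi1 0.787 and 3.04 against 0.924 and 2.21 CPM. In these 3 the groups overlapped, and in Spi1 both replicates 3 were above both replicates 2. Their log2 differences were -0.10, 0.08 and 0.31, and each changed sign in at least 1 of the fits that left out a single library.

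In the lists of relatives and targets, 8 genes were called in the Sca1 comparison, beside 4.41% of all 13529 genes tested. They fell 1 to a list, in lists with 4 to 14 genes tested. These counts moved with single libraries. More C/EBP myeloid targets were called without Sca1- replicate 2, and more LXR targets without Sca1- replicate 3. Each of these fits left 1 library under the Sca1- label, and the calls over all genes rose in both as well. Of the 8, the LXR target Pltp was lower in the libraries labelled Sca1- (8.95 ± 1.77 against 29.8 ± 3.41 TMM-scaled CPM, SD, n = 2), as were the ETS factor Fli1, Adipoq and the iron exporter gene Slc40a1. The haematopoietic cofactor Lmo2 was higher (11.96 ± 0.771 against 2.28 ± 0.284), as were Il6 (145 ± 0.805 against 67.7 ± 7.65) and the cytokine gene Csf2. Macrophage markers (9 of 15 listed) summed to 27.4 and 43.1 CPM in the libraries labelled Sca1- and to 33.1 and 38.2 CPM in those labelled Sca1+, without separation. Neutrophil markers (10 of 12 listed) summed to 59.9 and 118 against 43.6 and 68.6 CPM, and their part in the values of the factors was not tested.

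In the Igf1r knockouts (3 against 3), 0 of the 7 factors were called by edgeR, and 5 of all 13590 genes (0.0368%) were called, all lower in the knockouts. At an unadjusted p under 0.05 stood 2 of the 7, Spi1 and Irf8, and 21.8% of all genes. DESeq2 called 1 of the 7, Spi1, beside 474 genes higher and 493 lower in all. The median log2 difference was -0.55 over the 7 factors and -0.03 over all genes.

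**Figure D5:**
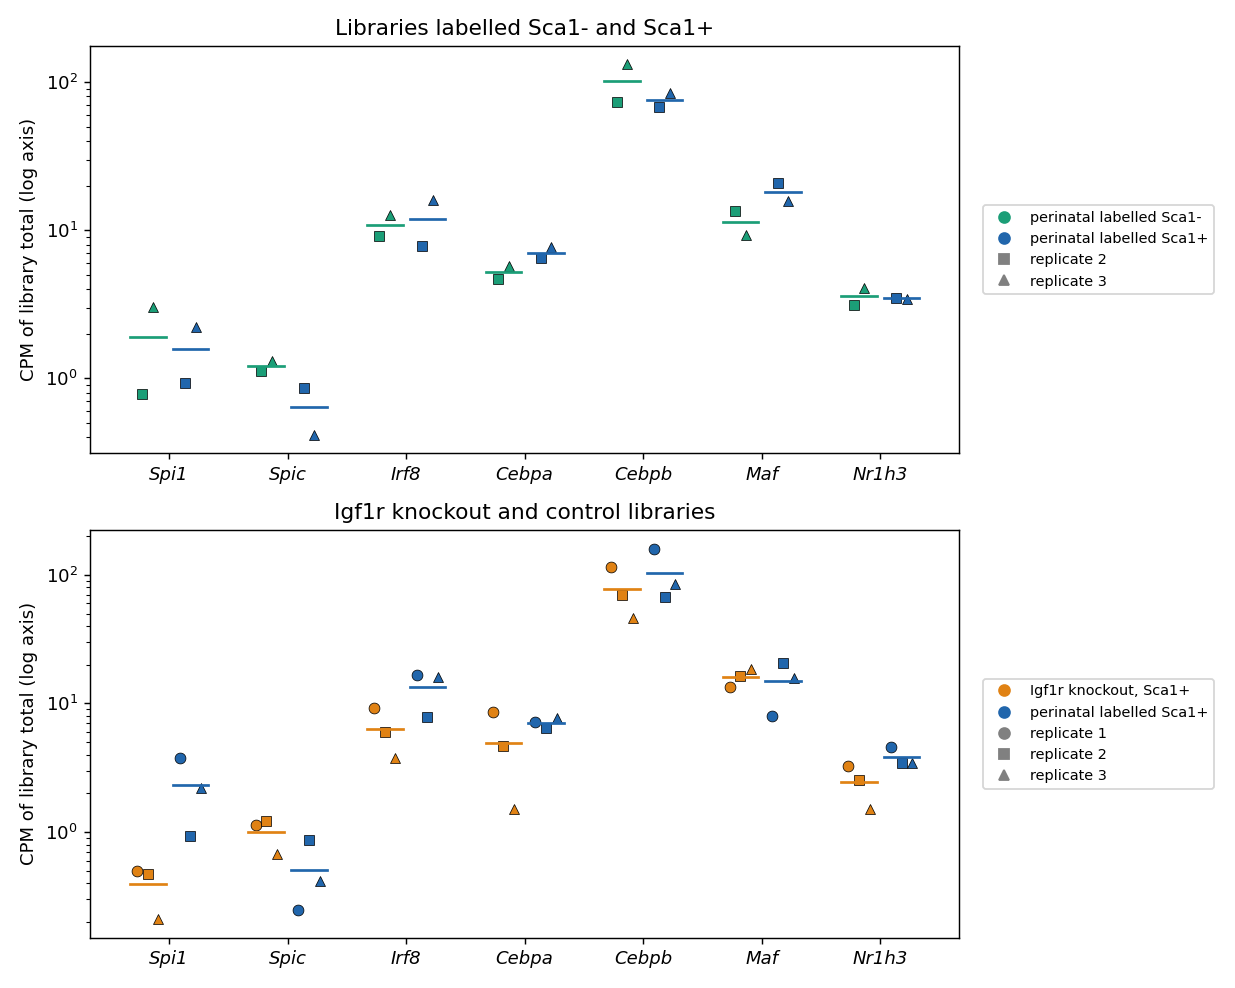
CPM of the library total (log axis) of each factor in the libraries labelled Sca1- and Sca1+ (top, 2 against 2) and in knockouts and controls (bottom, 3 against 3), with replicates as marker shapes and group means as bars. In the bottom panel every knockout lies below every control for Spi1 and Nr1h3, and the other 5 factors overlap.

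Spi1 had 0.496, 0.474 and 0.210 CPM in knockouts 1 to 3 and 3.80, 0.924 and 2.22 CPM in controls 1 to 3. Every knockout lay below every control, a separation in the lower direction that 14.1% of all genes showed, and the values rest on 11, 9 and 5 against 77, 16 and 32 counts. The log2 difference was -2.57 (SE 0.68), with an edgeR adjusted p of 0.177. DESeq2 gave -2.60 with an adjusted p of 0.0161, and the authors' deposited table gives -2.60 with an adjusted p of 0.0174. Over the other alternatives the edgeR adjusted p ran from 0.0549 to 0.586, with a log2 difference of -1.92 without control 1 and -3.34 without controls 2 and 3. Control 1 was the Sca1+ library of that table with the Ly6a level nearest to the knockouts.

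Irf8 had 9.19, 6.01 and 3.74 CPM in the knockouts and 16.8, 7.85 and 15.9 CPM in the controls. Knockout 1 overlapped control 2, and the log2 difference was -1.11 (SE 0.41, edgeR adjusted p = 0.197). The Irf8 to Spi1 ratio was 18.5, 12.7 and 17.8 in the knockouts and 4.42, 8.5 and 7.19 in the controls, and the exact intervals of the knockouts (6.44 to 56.2) overlapped those of the controls (3.44 to 15.3). Nr1h3 had 3.25, 2.53 and 1.51 CPM in the knockouts and 4.59, 3.47 and 3.46 CPM in the controls. It did not overlap, with a log2 difference of -0.66 (SE 0.38, edgeR adjusted p = 0.313).

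Cebpa had 8.52, 4.64 and 1.51 CPM in the knockouts and 7.15, 6.47 and 7.68 CPM in the controls, so that the knockouts spread around the controls (log2 difference -0.55, SE 0.51, edgeR adjusted p = 0.504). Without knockout 1 the difference was -1.16 and without knockout 3 it was -0.14. Cebpb had 115, 70.3 and 46.3 CPM in the knockouts and 159.7, 67.5 and 84.5 CPM in the controls (log2 difference -0.45, SE 0.43, edgeR adjusted p = 0.508), and without control 1 the difference was 0.0710. Knockout 1 held the highest and knockout 3 the lowest knockout value of Spi1, Irf8, Cebpa, Cebpb and Nr1h3.

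In Maf the knockout libraries stood the other way round, with 13.4, 16.3 and 18.7 CPM in the knockouts and 7.99, 20.8 and 15.7 CPM in the controls. The groups overlapped (log2 difference 0.19, SE 0.35, edgeR adjusted p = 0.747), and the difference was -0.0814 without control 1 and 0.96 without controls 2 and 3. Spic had 1.13, 1.21 and 0.673 CPM in the knockouts and 0.247, 0.866 and 0.415 CPM in the controls. It rests on 16 to 25 against 5 to 15 counts, and the log2 difference was 1.01 (SE 0.61, edgeR adjusted p = 0.323). Without controls 2 and 3, against control 1 alone and with its spread taken from the knockouts, 0 of the 7 factors were called, and the log2 differences of Spic, Cebpb, Irf8, Nr1h3 and Cebpa were 1.92, -1.14, -1.50, -0.999 and -0.65 (edgeR adjusted p from 0.586 to 0.714).

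In the lists of relatives and targets 0 genes were called in the knockout comparison by edgeR. Of 12 LXR targets, 8 had an unadjusted p under 0.05, with 3 above and 5 below the controls, beside 21.8% of all genes tested. Without knockout 1, 2 of the LXR targets were called higher and 5 lower, in a fit that called 1532 of all genes higher and 1471 lower. The 2 most abundant were Apoe, at 109 ± 53.5 in the knockouts and 233 ± 42.1 in the controls (TMM-scaled CPM, SD, n = 3, edgeR adjusted p = 0.182), and Lpl, at 194 ± 23.0 against 138 ± 9.44 (edgeR adjusted p = 0.234). Of 10 PU.1 targets, 2 had an unadjusted p under 0.05. Macrophage markers (13 of 15 listed) summed to 37.4, 23.4 and 18.96 CPM in the knockouts and to 39.9, 34.0 and 38.7 CPM in the controls, with Adgre1 at 0 to 9 counts and Itgam at 0 to 18 counts per library. Neutrophil and granulocyte precursor markers (11 of 12 listed) summed to 41.2, 21.2 and 51.5 CPM in the knockouts and to 78.6, 43.8 and 68.9 CPM in the controls, with a median log2 difference of -0.89 over the 10 tested and 0 called. Mpo stood at 1.43 ± 0.643 against 6.37 ± 6.23 TMM-scaled CPM (SD, n = 3, edgeR adjusted p = 0.184). Erythroid markers (8 of 8 listed), of which 4 were called lower in the knockouts, summed to 157 to 248 CPM in the knockouts and 1243 to 1666 CPM in the controls. The part of these cell types in the Spi1 values was not tested.

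Over the 6 libraries of the knockout table, the genes of the fixed lists with the most similar profile to each factor were named by Pearson's r of log2(CPM + 0.5), among 152 genes, as a description. The 6 libraries share the difference between the groups and that between control 1 and controls 2 and 3. The 2 highest of 152 values over 6 libraries are high by selection, and they do not show that genes act together. Nr1h3 was closest to its paralog Nr1h2 (0.986) and to the lipid synthesis regulator gene Srebf1 (0.977), Cebpa to the receptor genes Rxrb (0.977) and Rxra (0.973), and Cebpb to Cd14 (0.972) and its relative Cebpd (0.958). Spi1 was closest to the leukocyte gene Laptm5 (0.945) and to Mpo (0.906), Irf8 to Cspg4 (0.968) and Nr4a1 (0.94), and Maf to Ctsc (0.992) and the cytokine receptor gene Csf2rb (0.986). Spic had a mean under 1 CPM and was not compared.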

How the data were processed

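The authors deposited 3 tables with raw counts per gene for each library, TPM values for the age and Sca1 tables, and a log2 fold change and adjusted p-value of their own comparison, per the file headers. Trimmomatic 0.32 is named for trimming, and the notes name mm10 and DESeq2 (per the submitters' processing notes). For aligner, counter, annotation and strand setting, each is not given in the sources used here. Columns headed TPM in the deposited knockout table hold log2 values and were not used.

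Each table was analysed alone. Genes passing filterByExpr were tested with edgeR 4.0.16 in R 4.3.3 (TMM factors, glmQLFit with robust estimation, glmQLFTest, group as the only term), with Benjamini-Hochberg adjustment over all genes tested and calls at an adjusted p under 0.05. SE is the size of the log2 fold change divided by the root of F. Single-library values are CPM of the library total. Ratios of counts carry exact 95% binomial intervals. The fit was checked on counts simulated with the same dispersion for every gene. That check does not cover a group with a library that stands apart from the others. Alternatives were other scaling factors, no filter on low counts, DESeq2 1.42.0, a replicate block, leaving out each library, leaving out Sca1+ libraries 2 and 3 and, chosen after seeing the data, limma 3.58.1 on log2(TPM + 1). The members and lists were chosen with earlier results of these data known. Named genes are all 7 members and, from each list, the 3 called genes with the lowest adjusted p (the 2 most abundant where none was called), of which some are not reported here. The TATAAA motif was added after the sequences were read.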

Additional observations from a re-analysis of the deposited data

How the results depend on the processing

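In the age comparison 5142 genes were called higher and 5468 lower (48.5% higher). Upper quartile factors shifted the median of all genes by -0.129 on the log2 scale and gave 4733 higher and 5824 lower. The TPM fit shifted it by 0.526 and gave 6503 higher and 3709 lower (63.7% higher), with 1 of the 7 factors called lower (Cebpb). Leaving out 1 library gave -0.212 to 0.0289 for Cebpb, whose sign turned without adult replicate 2 (0.0289) and without Sca1+ libraries 2 and 3 (0.00314). In the Sca1 comparison 220 genes were called higher and 377 lower. DESeq2 gave 428 and 598, and the TPM fit 133 and 337. Leaving out 1 library gave 143 to 2268 higher and 317 to 2567 lower, with 0 to 1 of the factors called in each direction. Signs turned for Irf8 (-0.550 to 0.512 over these fits, 0.0950 without Sca1- replicate 2, 0.512 without Sca1+ replicate 3), Spi1 (-0.905 to 1.07, -0.905 without Sca1- replicate 3, -0.227 without Sca1+ replicate 2) and Nr1h3 (-0.0709 to 0.234, the lowest without Sca1- replicate 3). In the knockout comparison 0 genes were called higher and 5 lower. DESeq2 gave 474 and 493, with 1 factor called lower (Spi1), and leaving out 1 library gave 0 to 1532 higher and 0 to 1471 lower, the highest without knockout 1. Without controls 2 and 3 there were 0 lower calls. Cebpb (-0.792 to 0.0710) and Maf (-0.0814 to 0.472) turned sign without control 1 (0.0710 and -0.0814). The cause was not tested in these cases.

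The replicate numbers are not shown to pair samples. Deviations of same-numbered samples correlated at -0.0190, -0.0171 and 0.185 in the age comparison, at 0.303 in the Sca1 comparison, where 2 pairs leave a single value, and at 0.188, 0.118 and 0.0543 in the knockout comparison. In the last, knockout 3 correlated best with control 2. A replicate block gave 5012 genes higher and 5295 lower for age, 577 and 792 for Sca1, and 0 and 0 for the knockout, and changed the call of none of the 7 factors.

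Depth limits Spi1 outside the adult and Spic in every group, which rest on 5 to 77 counts per library. The TPM fit could not test Spic in the Sca1 comparison, and it was not run for the knockout table. List counts are to be read beside the calls over all genes given above. Those of the age comparison stayed within 2 genes of those given, over 13 alternatives on counts. Those of the other comparisons moved more, up to 5 in the knockout comparison (LXR targets lower, 0 to 5) and in the Sca1 comparison (LXR targets higher, 0 to 5, and lower, 1 to 6; C/EBP myeloid targets higher, 0 to 5).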

Other observations

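Of the 2 protein-coding genes between Spi1 and Nr1h3, Madd, which encodes a MAP kinase activating death domain protein, was called higher in the adult at 84.6 ± 13.5 against 18.6 ± 6.17 TMM-scaled CPM (SD, n = 3, log2 difference 2.19, SE 0.25, edgeR adjusted p = 0.000124). It was not called in the knockouts, at 39.6 ± 22.5 against 10.3 ± 4.94 (edgeR adjusted p = 0.177), where Spi1 and Nr1h3 lay on the other side of the controls.

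The Maf to Spi1 ratio of counts was 2.53, 2.07 and 2.57 in the adult libraries. In Sca1+ libraries 2 and 3 it was 22.5 and 7.09, in the libraries labelled Sca1- it was 17.2 and 3.05, and in the knockouts it was 27.0, 34.4 and 88.8 with exact 95% intervals from 14.9 to 275. Sca1+ replicate 1 of the knockout table stood near the adult libraries in this ratio alone, at 2.10 with an interval of 1.59 to 2.80. Its Maf and Spi1 levels were 7.99 and 3.80 CPM, against at least 575 and 263 CPM in the adult libraries. In the age table, whose counts for Sca1+ replicate 1 differ, the ratio was 17.1. Spic to Spi1 was under 0.01 in each adult library. It was 2.27, 2.56 and 3.20 in the knockouts, with intervals from 1.08 to 11.2, and 0.0649, 0.938 and 0.188 in their controls, with intervals from 0.0205 to 2.02. Other perinatal wild-type libraries reached towards the knockouts, with 1.42 (interval 0.638 to 3.25) in Sca1- replicate 2 and 1.17 (0.501 to 2.76) in the age version of Sca1+ replicate 1, and Sca1- replicate 3 stood at 0.429 (0.232 to 0.761).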
